A study of Macaca radiata with 6 samples.

Results

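The genes of the mitochondrial respiratory chain and ATP synthase were examined in the corpus luteum (CL) of the bonnet monkey after LH withdrawal. They were chosen by gene symbol, namely the NDUF subunit genes of complex I, SDHA to SDHD of complex II, the UQCR genes and CYC1 of complex III, COX4 to COX8 of complex IV, and the ATP5 genes. This gave 59 of the 14132 genes that had a probe set with a single symbol, with 24 genes in complex I, 3 in complex II, 7 in complex III, 10 in complex IV and 15 in ATP synthase. NDUFA4 and NDUFA4L2 were counted with complex IV, where the NDUFA4 protein sits, and ATP5IF1, an inhibitor protein of ATP synthase, was counted with that complex. COX4I1, COX6A1 and NDUFB8 were found only on probe sets that carry several symbols and were given no value.

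Adult female bonnet monkeys received a single subcutaneous dose of Cetrorelix (CET), an antagonist of the GnRH receptor that withdraws pituitary LH from the CL, at 150 µg/kg BW. The vehicle (VEH) was 5.25% glucose, and injections were given on luteal day 7. Whole CL were taken 24 h later, and each of 3 CET samples (replicates 1 to 3) and 3 VEH samples (replicates 4 to 6) was hybridised to a rhesus macaque Affymetrix array. Both groups are described as taken from one set of monkeys, without a label that tells which samples share an animal. All levels below are quantile-normalized log2 signals of the brightest probe set of a gene, and a log2 fold change is the CET mean minus the VEH mean, given with its standard error (SE) from limma. Because the CL was taken whole, fewer cells of a type and less RNA per cell cannot be told apart.

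The respiratory chain passes electrons from NADH (complex I) and succinate (complex II) through ubiquinone and complex III to cytochrome c and on to oxygen at complex IV. Protons pumped on the way drive ATP synthase, whose F1 head makes ATP while the ring of c subunits turns in the membrane. The complexes other than complex II also hold subunits encoded by mitochondrial DNA, so that nuclear and mitochondrial genes are needed together. In luteal cells mitochondria also house the first step of steroid synthesis, in which CYP11A1 cleaves the cholesterol side chain after STAR has delivered the substrate.

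The arrays were not alike in quality. The 3' signal of the GAPDH control was 5.89, 142.9 and 3.03 times its 5' signal in CET replicates 1, 2 and 3, against 7.31, 1.79 and 3.07 times in VEH replicates 4, 5 and 6. The CET arrays correlated less with each other (mean Spearman rho over probe sets 0.664, 0.710 and 0.709 for CET replicates 1, 2 and 3) than with the VEH arrays (0.756, 0.727 and 0.733), and the gap was widest for CET replicate 1. STAR had the log2 signals 14.86, 12.74 and 13.66 in CET CL and 15.27, 15.44 and 14.89 in VEH CL, so a defining marker of the tissue was bright on all 6 arrays. Counts, medians and some of the genes are also given with a CET array left out.

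After CET the mean of 44 of the 59 genes was lower than in VEH CL (74.6%), against 54.6% of all genes. Their median log2 fold change was -0.33, against -0.082 for all genes and -0.17 for the 1089 genes at or above the median signal of the respiratory chain genes, of which 63.9% had a lower mean. None of the 59 genes passed an adjusted p of 0.05 in limma (smallest adjusted p = 0.83), and this was so for 0% of all genes. At an unadjusted p under 0.05 in limma, 0 of the 59 were lower, where 3.01% of all genes were, and 0 were higher, where 2.02% of all genes were. A difference of at least 1.5-fold in the means was seen for 17 genes lower after CET (28.8%, against 23.9% of all genes) and for 2 genes higher, NDUFV3 and COX6A2 (3.39%, against 18.7% of all genes). Among the 1089 genes of like or higher signal these shares were 21.1% lower and 9.18% higher. By the methods' t-test, 1 gene was lower at an unadjusted p under 0.05, NDUFS4, where 2.89% of all genes were, and 0 passed after adjustment. No single gene was therefore called at an adjusted p of 0.05, in limma or by the methods' t-test.

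The share with a lower mean moved with the scaling between arrays. It was 51 genes (86.4%) with the signals as deposited, 54 genes (91.5%) with array medians subtracted and 37 genes (62.7%) with cyclic loess, and the median over all genes was 0.0042, -0.20 and -0.046 under these scalings. The median of the respiratory chain genes was -0.54, -0.74 and -0.21, below that of all genes in each. The precision of 3 against 3 arrays was low, since the median 95% confidence interval reached 1.03 log2 units to either side. For 46 of the 59 genes the interval nevertheless left out a doubling after CET, for 16 it left out a halving, and for 6 it left out both. Over all 14132 genes these counts were 5428, 4004 and 280. Over the 1089 genes at or above the median signal of the respiratory chain genes they were 725, 449 and 146.

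**Figure D1:**
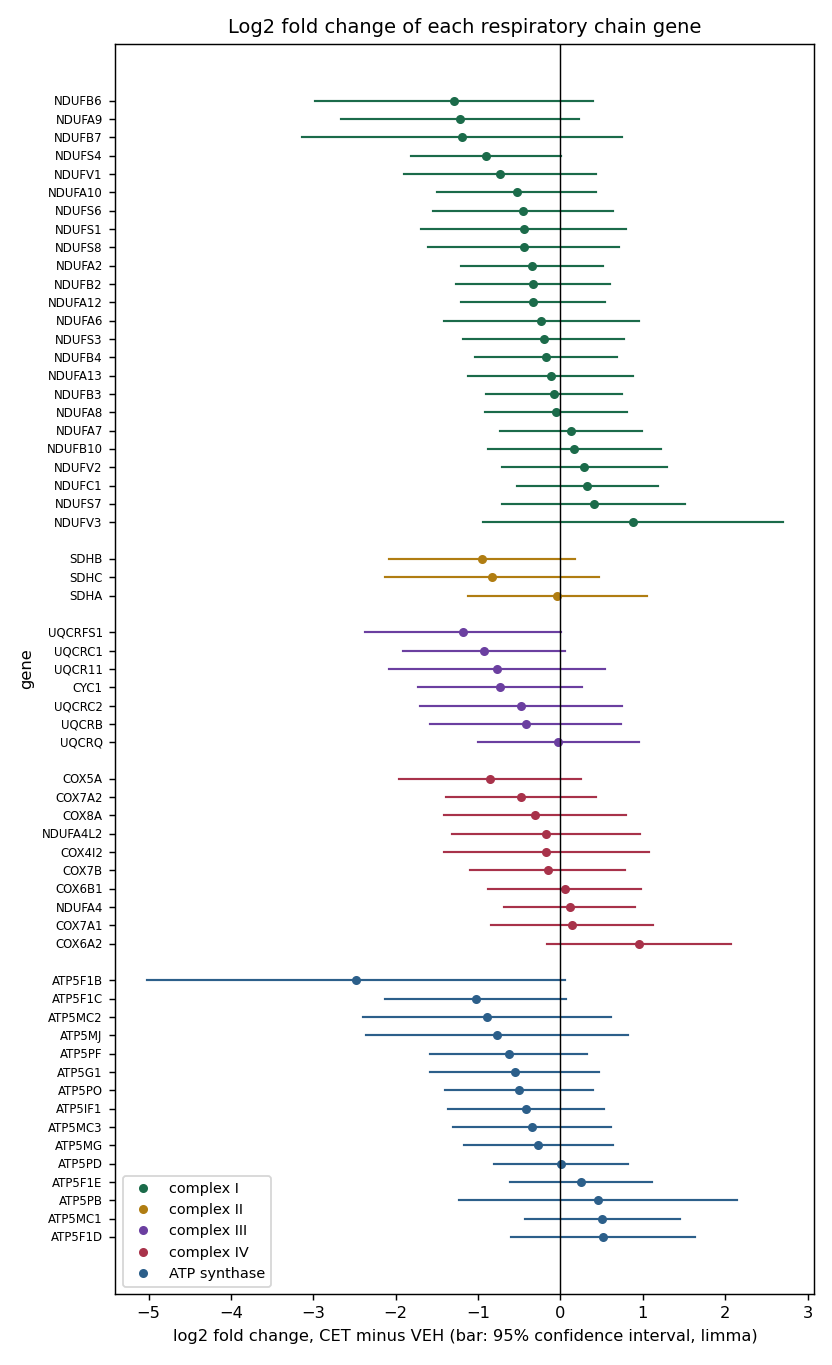
Log2 fold change, CET minus VEH, on the x axis for each of the 59 genes on the y axis, ordered within each complex, with the 95% confidence interval from limma as a bar. The points lie between -2.48 (ATP5F1B) and 0.96 (COX6A2), most are left of 0, and every bar crosses 0.

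The array by array values showed that the CET samples did not share the lower means evenly. Without CET replicate 1, 2 or 3, a lower mean was seen for 45, 46 and 32 of the 59 genes. These were 76.3, 78 and 54.2%, against 53.9, 56.5 and 50.5% of all genes. Set against the VEH mean of each gene, the median of the 59 genes was 0.065, -0.19 and -0.72 in CET replicates 1, 2 and 3, against 0.19, 0.044 and -0.21 in VEH replicates 4, 5 and 6. For all genes these medians lay between -0.16 (CET replicate 3) and 0.044. By this median CET replicates 1 and 2 thus lay within the range of the VEH samples, and CET replicate 3 was the lowest of the 6 arrays. It held the lowest value of 27 genes (45.8%, against 25.2% of all genes), while CET replicate 2 held that of 16 genes (27.1%, against 19.8%) and CET replicate 1 that of 4. VEH replicates 4, 5 and 6 held the lowest value of 0, 5 and 7 genes.

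CET replicates 2 and 3 differed from each other in pattern. More than 1 log2 unit below the VEH mean were 0, 17 and 22 genes in CET replicates 1, 2 and 3, against 12.9, 19.3 and 21.6% of all genes. Of these, 12 genes were so in both replicates 2 and 3 (20.3%, against 7.49% of all genes). The 12 were NDUFA9, NDUFB7, NDUFS4, SDHB, SDHC, CYC1, UQCRC1, UQCRFS1, COX5A, ATP5F1B, ATP5F1C and ATP5MC2, a list drawn after the values were seen. A further 5 genes were this low only in replicate 2 and 10 only in replicate 3. Replicate 2 also held 5 genes more than 1 unit above the VEH mean. The SD of the 59 deviations was 0.383, 1.29 and 0.808 in CET replicates 1, 2 and 3, against 0.355 to 0.407 in VEH CL. For all genes the SD was 0.986, 1.16 and 1.19, against 0.583 to 0.683 in VEH CL. Each VEH array is part of the mean it is set against, which makes its deviations smaller. In CET replicate 2, where the GAPDH ratio was highest, the genes were therefore scattered to both sides. In CET replicate 3, whose ratio was close to that of VEH replicate 6, they were mainly shifted to one side. The part of RNA quality in these values was not tested beyond the covariate fit below.

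**Figure D2:**
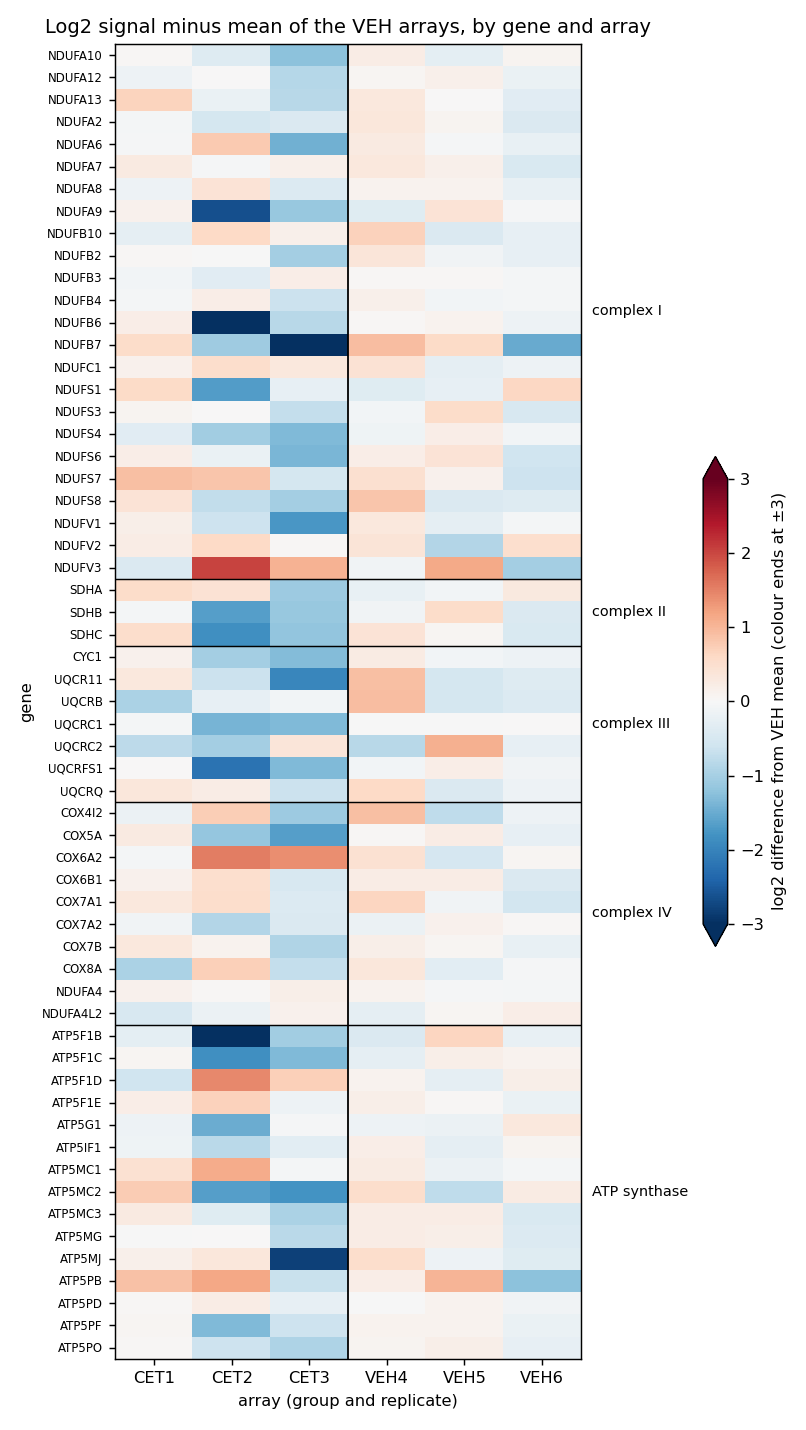
Log2 signal minus the mean of the 3 VEH arrays (colour) for the 59 genes (rows, grouped by complex) on the 3 CET and 3 VEH arrays (columns). Blue rows are frequent in CET2, where 17 genes are more than 1 unit below the VEH mean, and in CET3, where 22 are, while CET1 has none.

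**Figure D3:**
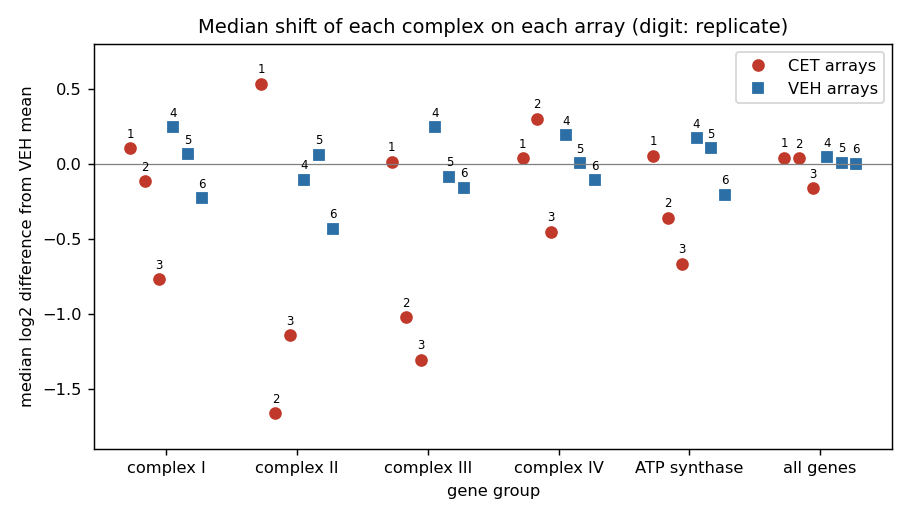
Median log2 difference from the VEH mean (y axis) of the genes of each complex and of all genes (x axis) on each array, with circles for CET, squares for VEH and the replicate number above each. The lowest values are those of complex II (-1.66 in CET2, -1.14 in CET3) and complex III (-1.02 and -1.30), and CET1 is above 0 in all 5 complexes.

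In complex I, 18 of 24 genes had a lower mean after CET and the median log2 fold change was -0.28. Of the 6 catalytic core genes, which carry the flavin and the iron-sulphur clusters or bind ubiquinone, 4 had a lower mean (median -0.33), and of the 18 accessory genes 14 had (median -0.28). Core and accessory subunits therefore gave nearly the same median. Leaving out CET replicate 3 brought the median of complex I to 0.0032, and leaving out CET replicate 1 to -0.45.

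NDUFS4, an accessory subunit of the NADH-oxidising arm, had the log2 signals 11.24, 10.53 and 10.26 in CET CL and 11.46, 11.78 and 11.51 in VEH CL. All 3 CET values lay below all VEH values, and NDUFS4 and UQCRC1 were the only 2 of the 59 genes whose groups did not overlap in the lower direction (3.39%, against 6.45% of all genes). In the higher direction 0 genes were apart, against 5.09% of all genes. The log2 fold change of NDUFS4 was -0.90 (SE 0.42, adjusted p = 0.83 in limma).

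NDUFA9, an accessory subunit beside the ubiquinone site, had 10.16, 7.39 and 8.90 in CET CL and 9.67, 10.44 and 10.01 in VEH CL. Its groups overlapped because CET replicate 1 lay above 2 of the VEH values, and its log2 fold change was -1.22 (SE 0.66, adjusted p = 0.83 in limma). NDUFB6 of the membrane arm had 9.73, 6.30 and 8.71 in CET CL and 9.58, 9.66 and 9.39 in VEH CL, with a log2 fold change of -1.29 (SE 0.77). NDUFB7, another membrane arm subunit, was lowest in CET replicate 3, with 10.33, 8.71 and 6.72 in CET CL and 10.71, 10.37 and 8.28 in VEH CL. NDUFB6 and NDUFB7 were picked after their values were seen, since one carries the low value of CET replicate 2 and the other that of CET replicate 3. Both of these values, and that of NDUFA9 in CET replicate 2, lay under the dim limit (the 40th percentile of mean log2 signal, 7.43). Without CET replicate 2 the log2 fold change of NDUFB6 was -0.32 and that of NDUFA9 -0.51. Without CET replicate 3 that of NDUFB7 was -0.27, against -1.20 with all arrays.

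On the higher side, NDUFV3, a small accessory subunit of the NADH-oxidising arm, had 6.83, 9.28 and 8.31 in CET CL and 7.15, 8.40 and 6.23 in VEH CL. Its VEH mean was under the dim limit (the 40th percentile of mean log2 signal, 7.43), its groups overlapped, and its log2 fold change of 0.88 had an SE of 0.83. A second, dim probe set of NDUFV3 had a log2 fold change of -1.82. NDUFC1 of the membrane arm had 12.48, 12.88 and 12.66 in CET CL and 12.78, 12.07 and 12.19 in VEH CL. Its log2 fold change was 0.33 (SE 0.39), and -0.10 with the signals as deposited. NDUFB4, the brightest probe set of complex I, had 12.97, 13.24 and 12.39 in CET CL and 13.18, 12.96 and 12.97 in VEH CL. Its log2 fold change was -0.17 (SE 0.39), and 0.0029 with cyclic loess. In neither gene did the groups stand apart.

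Complex II, or succinate dehydrogenase, is the enzyme of the chain that also belongs to the citric acid cycle. All 3 genes had a lower mean, with a median log2 fold change of -0.83. SDHB, the iron-sulphur subunit, had 10.59, 8.99 and 9.51 in CET CL and 10.55, 11.19 and 10.22 in VEH CL, a log2 fold change of -0.96 (SE 0.52, adjusted p = 0.83 in limma). SDHC, a membrane anchor, had 11.29, 8.91 and 9.58 in CET CL and 11.17, 10.82 and 10.29 in VEH CL, a log2 fold change of -0.83 (SE 0.60). In both genes CET replicates 2 and 3 lay below all VEH values and CET replicate 1 among or above them.

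SDHA, the flavoprotein that oxidises succinate, had 11.56, 11.44 and 9.92 in CET CL and 10.79, 10.94 and 11.30 in VEH CL. Here CET replicates 1 and 2 were the highest of all 6 arrays and CET replicate 3 the lowest, so that the log2 fold change of -0.041 (SE 0.50) was small beside the spread. Its sign turned with cyclic loess (0.16) and without CET replicate 3 (0.48). The catalytic subunit and its iron-sulphur partner thus gave different patterns over the CET samples, and the median of complex II without CET replicate 2 was -0.32.

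The log2 fold changes of complex III had the smallest SD of the 5 complexes (0.376). All 7 genes had a lower mean, and the median log2 fold change was -0.73. For all 7 the 95% confidence interval left out a doubling after CET, as for 5428 of all 14132 genes. The median stayed between -0.59 and -1.16 when any 1 array was left out, and between -0.48 and -1.11 in the other alternatives. Dimmer probe sets did not all share the direction. Those of UQCRB had log2 fold changes of 0.80 (groups apart, higher), -0.95 (groups apart, lower) and -0.53, and that of UQCR11 had 0.56. They were named after their values were seen.

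UQCRC1, a core protein facing the matrix, had 11.57, 10.25 and 10.31 in CET CL and 11.63, 11.63 and 11.65 in VEH CL. The VEH values were nearly identical, and CET replicate 1 lay just below them. Its log2 fold change was -0.93 (SE 0.45, adjusted p = 0.83 in limma). The dimmer probe sets of UQCRC1 had log2 fold changes of -0.46 and -0.20, with groups that overlapped. UQCRFS1, the Rieske iron-sulphur protein that takes electrons from ubiquinol, had 11.46, 9.22 and 10.11 in CET CL and 11.36, 11.64 and 11.33 in VEH CL. CET replicate 1 lay within the VEH range, the other CET samples more than 1 unit below it, and the log2 fold change was -1.18 (SE 0.54, adjusted p = 0.83 in limma).

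CYC1, cytochrome c1, which hands the electrons to cytochrome c, had 12.22, 11.07 and 10.78 in CET CL and 12.33, 12.001 and 11.93 in VEH CL, a log2 fold change of -0.73 (SE 0.45). It showed the same order of the CET samples as NDUFS4. The structural subunit UQCR11 was lowest in CET replicate 3, with 12.40, 11.44 and 10.12 in CET CL and 12.997, 11.56 and 11.71 in VEH CL. Its log2 fold change was -0.77, and -0.17 without CET replicate 3. UQCRC2, the other core protein, differed from UQCRC1 with 10.71, 10.46 and 11.86 in CET CL and 10.66, 12.57 and 11.25 in VEH CL, where both groups were wide. CYC1, UQCR11 and UQCRC2 were added after their values were seen. UQCRQ, a small subunit near cytochrome b and the brightest of the complex, had 13.38, 13.27 and 12.38 in CET CL and 13.63, 12.61 and 12.88 in VEH CL, a log2 fold change of -0.027 (SE 0.45) and 0.12 with cyclic loess.

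**Figure D4:**
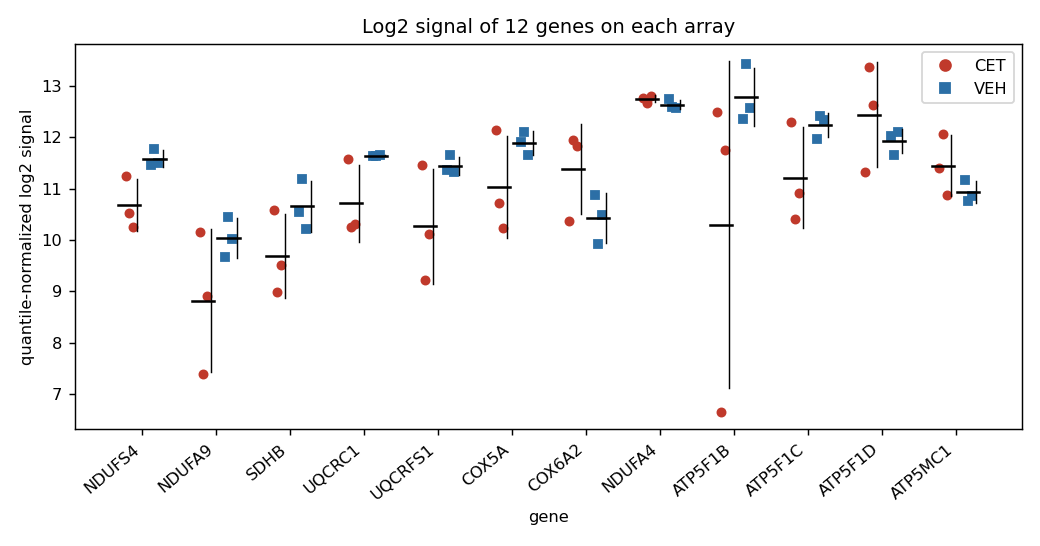
Quantile-normalized log2 signal (y axis) of 12 genes (x axis) on each array, with CET as circles left of VEH as squares, the group mean as a horizontal line and 1 SD as a vertical line. ATP5F1B lies between 6.66 and 12.49 in CET, and the VEH values of UQCRC1 lie between 11.63 and 11.65.

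Complex IV, cytochrome c oxidase, had the smallest median shift, -0.16, with 6 of 10 genes lower after CET. Several of its subunits come in isoforms used in different tissues. COX5A, a matrix-facing subunit without a tissue isoform, had 12.14, 10.71 and 10.23 in CET CL and 11.91, 12.10 and 11.65 in VEH CL. Its CET replicates 2 and 3 lay well below the VEH range, and the log2 fold change was -0.86 (SE 0.51, adjusted p = 0.83 in limma). A second, dimmer probe set of COX5A had a log2 fold change of 0.74.

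COX6A2, the isoform of heart and skeletal muscle, had the highest log2 fold change of the 59 genes, with 10.38, 11.95 and 11.82 in CET CL and 10.87, 9.92 and 10.49 in VEH CL. CET replicates 2 and 3 lay above all VEH values, CET replicate 1 among them, and the log2 fold change was 0.96 (SE 0.51, adjusted p = 0.83 in limma). Of the 6 striated muscle markers with a probe set, 4 also had a higher mean after CET. Their summed signal was 2860 to 5508 in CET CL and 1552 to 2934 in VEH CL. CKM, the muscle creatine kinase, had 9.51, 10.05 and 9.68 in CET CL and 8.20, 8.22 and 8.91 in VEH CL, and TNNT1, the slow muscle troponin T, was higher as well at an unadjusted p under 0.05 in limma, whereas MB, myoglobin, had a lower mean (log2 fold change -0.95). Their part in the COX6A2 values was not tested.

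COX7A1, the muscle isoform of another subunit, did not share this pattern, with 12.28, 12.49 and 11.56 in CET CL and 12.62, 11.86 and 11.42 in VEH CL. Its log2 fold change was 0.14 (SE 0.45) and turned to -0.17 with the signals as deposited. Its broadly expressed counterpart COX7A2 had 10.62, 9.84 and 10.30 in CET CL and 10.55, 10.86 and 10.76 in VEH CL, a log2 fold change of -0.48 (SE 0.42). COX4I2, the isoform of subunit 4 linked to low oxygen, had 10.72, 11.65 and 9.82 in CET CL and 11.80, 10.15 and 10.74 in VEH CL. Its groups overlapped widely (log2 fold change -0.17, SE 0.57), and its direction depended on which CET array was left out.

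NDUFA4 varied little, with 12.75, 12.67 and 12.81 in CET CL and 12.73, 12.59 and 12.57 in VEH CL, a log2 fold change of 0.11 (SE 0.36). This was -0.27 with the signals as deposited. Its paralogue NDUFA4L2, which is induced by hypoxia in other tissues, had 8.24, 8.54 and 8.83 in CET CL and 8.45, 8.77 and 8.92 in VEH CL, a log2 fold change of -0.18 (SE 0.52). COX6B1, which faces the intermembrane space and was the brightest of the complex, had 13.64, 14.01 and 13.03 in CET CL and 13.73, 13.74 and 13.07 in VEH CL, a log2 fold change of 0.053 (SE 0.42). For these 3 genes CET and VEH samples overlapped, and the sign of each difference turned with the signals as deposited.

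In ATP synthase 10 of 15 genes had a lower mean after CET, and the median log2 fold change was -0.42. With all 6 arrays the largest difference of the 59 genes was that of ATP5F1B, the catalytic beta subunit of the F1 head, with 12.49, 6.66 and 11.74 in CET CL and 12.36, 13.43 and 12.56 in VEH CL. Most of it came from CET replicate 2, whose signal was itself under the dim limit, although CET replicate 3 was also under the VEH range. The log2 fold change was -2.48 (SE 1.16, adjusted p = 0.83 in limma), and -0.66 without CET replicate 2, when it was no longer the largest. The other probe set of ATP5F1B had 9.75, 9.20 and 9.38 in CET CL and 9.02, 9.80 and 9.86 in VEH CL, with a log2 fold change of -0.12.

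ATP5F1C, the gamma subunit that turns inside the head, had 12.30, 10.40 and 10.92 in CET CL and 11.97, 12.41 and 12.34 in VEH CL. CET replicates 2 and 3 were both more than 1 unit below the lowest VEH sample, and the log2 fold change was -1.03 (SE 0.50, adjusted p = 0.83 in limma). The delta subunit ATP5F1D lay in the other direction, with 11.33, 13.36 and 12.63 in CET CL and 12.02, 11.65 and 12.10 in VEH CL, a log2 fold change of 0.52 (SE 0.51) that turned to -0.14 with array medians subtracted. Its second probe set had a log2 fold change of -1.53. The 4 genes of the F1 head and central stalk therefore split, with 2 lower and 2 higher means.

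The c subunit of the ring is encoded by several genes whose mature proteins are the same. ATP5MC2 had 11.01, 8.59 and 8.44 in CET CL and 10.77, 9.47 and 10.48 in VEH CL, a log2 fold change of -0.89 (SE 0.69). ATP5MC3 had 13.10, 12.48 and 11.90 in CET CL and 13.07, 13.07 and 12.38 in VEH CL, a log2 fold change of -0.35 (SE 0.44). In both genes the groups overlapped, as CET replicate 1 was as high as the highest VEH sample or higher. ATP5MC1 lay in the other direction, with 11.39, 12.05 and 10.87 in CET CL and 11.17, 10.76 and 10.86 in VEH CL, a log2 fold change of 0.51 (SE 0.43). Probe sets under ATP5G1, an older name for ATP5MC1, which the annotation lists here with 2 gene identifiers, had 11.55, 10.21 and 11.68 in CET CL and 11.56, 11.53 and 12.01 in VEH CL at the brightest one. Its log2 fold change was -0.56 (SE 0.47), and since near-identical copies exist the identity of this signal is uncertain.

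In the peripheral stalk, which holds the head still, 2 of 4 genes had a lower mean (median log2 fold change -0.25). ATP5PF and ATP5PO, which lie in the upper part of the stalk, were the 2 with a lower mean, at -0.63 (SE 0.44) and -0.50 (SE 0.41), and ATP5PD differed by 0.0065. ATP5PF, ATP5PO and ATP5PD were picked after their values were seen. ATP5MG, a membrane subunit at the dimer interface and the brightest of ATP synthase, had 13.23, 13.25 and 12.43 in CET CL and 13.46, 13.41 and 12.84 in VEH CL, a log2 fold change of -0.27 (SE 0.41). The median of ATP synthase was -0.048 without CET replicate 3, -0.28 without CET replicate 2 and -0.65 without CET replicate 1.

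CET replicate 1 was the CET array least correlated with the other CET arrays, and its median over the 59 genes was 0.065, within the VEH range. Leaving it out was a choice made after these values were seen, and removed the CET array nearest to VEH in these genes. This brought 16 of the 59 genes below an unadjusted p of 0.05 in limma with a lower mean (27.1%, against 10.1% of all genes). It brought 2 below it with a higher mean, for which the share over all genes was not taken. Groups that did not overlap in the lower direction then numbered 21 (35.6%, against 20.7% of all genes). The smallest adjusted p among the 59 genes was 0.24 in limma, so that none was called. The lower genes came from every complex, with UQCRFS1 at -1.78, UQCRC1 at -1.36, SDHB at -1.40, SDHC at -1.51, COX5A at -1.41, ATP5F1C at -1.58 and NDUFA9 at -1.89 as log2 fold changes. The 2 higher genes were COX6A2 (1.46) and ATP5F1D (1.07). Leaving out CET replicate 2 or 3 instead left 0 and 1 genes lower at that threshold, against 2.24% and 2.71% of all genes. The median of the 59 genes was then -0.31 and -0.075, against -0.11 and -0.0091 for all genes. No array was dropped from the other values given here.

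With the mean 3' to 5' ratio of the control transcripts as a covariate in limma, the median of the 59 genes was -0.38, 46 had a lower mean, and 1 was lower at an unadjusted p under 0.05 (1.69%, against 3.06% of all genes). Array weights, which give less weight to arrays that lie off the rest, left the median at -0.30 and brought 9 genes lower (15.3%, against 7.15% of all genes) and 1 higher below that p. The share of all genes that were higher in that fit was not taken. No adjusted p passed 0.05 in either fit.

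Probe sets of the same gene did not always give the same direction. The 59 genes had 98 probe sets with a single symbol, 29 genes had several, and 19 of the 39 dimmer ones had the opposite sign to the brightest one, in 18 genes. At an unadjusted p under 0.05 in limma, 3 of the 39 were lower, those of NDUFS8 (log2 fold change -2.42), NDUFV2 (-1.09) and COX7A2 (-2.12), and 1 was higher, that of NDUFB10 (1.04). Over all probe sets 2.74% were lower and 2.64% higher at this p. In NDUFS8, an iron-sulphur core subunit, the brightest probe set had a log2 fold change of -0.45 in the same direction, and in NDUFV2, another core subunit, it had 0.29 in the opposite one. These 4 genes were named because their second probe sets passed this p. Over the 22 genes with several probe sets above the dim limit, the median range of the deviations within a gene was 0.743, 1.87 and 1.03 log2 units in CET replicates 1, 2 and 3, against 0.410 to 0.509 in VEH CL. Disagreement within genes was thus widest in CET replicate 2, also among the CET arrays alone. The VEH arrays are part of the mean they are set against, which narrows their ranges. For 10 genes the brightest probe set was of the kinds whose probes can match several transcripts of a gene or related sequences, and copies of many of these genes occur as processed pseudogenes, so cross-reading cannot be told apart from the signal of the gene.

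**Figure D5:**
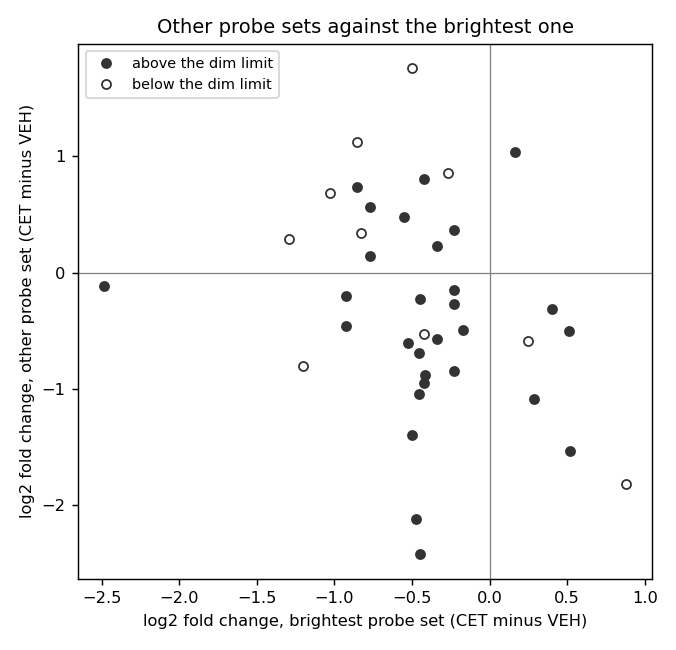
Log2 fold change, CET minus VEH, of the 39 other probe sets (y axis) against that of the brightest probe set of the same gene (x axis), filled where the other probe set lies above the dim limit and open where it lies below. The 19 points in the upper left and lower right fields have opposite signs.

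Subunits encoded by mitochondrial DNA had no probe set with a symbol. A set of 6 probe sets whose names mark them as mitochondrial, which were looked at after the data were seen, had 3 lower and 3 higher means after CET, and 0 had an unadjusted p under 0.05 in limma. One bright probe set among them, MmuMitochon.6.1.S1_s_at, had 13.18, 15.41 and 15.84 in CET CL and 12.56, 16.02 and 15.84 in VEH CL, where CET replicate 1 and VEH replicate 4 were both low. Which subunit each reads is not given in the annotation used.

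The genes around the respiratory chain were also mostly lower in mean after CET. Of the genes for assembly factors and inhibitor proteins of the complexes, 31 of 41 had a lower mean (75.6%, against 54.6% of all genes, with a median log2 fold change of -0.54). At an unadjusted p under 0.05 in limma, 1 of them was lower and 1 higher, close to the 3.01% and 2.02% of all genes. Those with groups apart in the lower direction numbered 6 (14.6%, against 6.45% of all genes), and 1 was apart in the higher direction, against 5.09%. LRPPRC, which stabilises mitochondrial mRNAs, had 9.54, 8.17 and 8.95 in CET CL and 9.50, 10.80 and 10.53 in VEH CL, a log2 fold change of -1.39. NDUFAF5, a complex I assembly factor, lay in the other direction with 9.53, 11.52 and 10.95 in CET CL and 9.42, 9.70 and 9.26 in VEH CL, a log2 fold change of 1.21. None of the genes in these lists passed an adjusted p of 0.05 in limma.

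Of 12 regulators of mitochondrial biogenesis, 9 had a lower mean (75.0%, against 54.6% of all genes, median -0.22). SSBP1, the DNA-binding protein that covers single-stranded mitochondrial DNA, had 12.23, 10.77 and 11.61 in CET CL and 12.45, 13.21 and 13.01 in VEH CL. All CET values lay below all VEH values, and the log2 fold change was -1.36 (adjusted p = 0.83 in limma). TWNK, the helicase of mitochondrial DNA, was apart as well, with a log2 fold change of -1.51, but its CET mean lay below the dim limit. These were the 2 of the 12 genes with groups apart in the lower direction (16.7%, against 6.45% of all genes). In limma 1 of the 12, SSBP1, was lower at an unadjusted p under 0.05, against 3.01% of all genes. Of 20 genes for carriers, porins and import, 19 had a lower mean (95%, median -0.43), and 3 had groups apart in the lower direction (15%, against 6.45%). In limma 0 of the 20 were lower at an unadjusted p under 0.05, against 3.01% of all genes. The smallest p belonged to the phosphate carrier SLC25A3 (log2 fold change -1.08), which supplies ATP synthase, and the prohibitin PHB1 (-1.09). Both had groups that did not overlap, but the second brightest probe set of PHB1 gave the opposite sign.

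Of 62 mitochondrial ribosomal protein genes, 54 had a lower mean (87.1%, against 54.6% of all genes, with a median of -0.42). At an unadjusted p under 0.05 in limma, 2 of them were lower and 1 higher, close to the shares of 3.01% and 2.02% over all genes. Those with groups apart in the lower direction numbered 8 (12.9%, against 6.45% of all genes), and 0 were apart in the higher direction, against 5.09%. MRPL39 had 9.02, 8.32 and 8.18 in CET CL and 9.63, 9.88 and 9.49 in VEH CL, a log2 fold change of -1.16, whereas MRPL30 was the higher one (1.11). Of 17 genes for electron carriers and other quinone enzymes, 11 had a lower mean (64.7%, against 54.6% of all genes, median -0.34). Among them were the transhydrogenase NNT (-1.09) and COQ6 of ubiquinone synthesis (-0.89), both with groups that did not overlap. Groups were apart in the lower direction for 3 of the 17 (17.6%, against 6.45% of all genes) and in the higher direction for 1, against 5.09% of all genes. In limma 0 of the 17 were lower at an unadjusted p under 0.05, against 3.01% of all genes. Of 5 genes for uncoupling and alternative routes, 3 had a lower mean (60%, against 54.6% of all genes, median -0.26), and 0 of them had an unadjusted p under 0.05 in limma. The smallest p among them were those of UCP3 (log2 fold change -0.76, SE 0.91) and SLC25A14 (-0.78, SE 0.93), whose signals overlapped between the groups and were under the dim limit in mean.

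Markers of the cells in the CL moved as follows. All 6 steroidogenic markers with a probe set had a lower mean after CET (median log2 fold change -1.09), and their summed signal was 36359 to 102770 in CET CL and 90965 to 128262 in VEH CL. Of 9 endothelial markers 7 had a lower mean (median -0.33), with summed signals of 14064 to 25021 in CET CL and 14336 to 21166 in VEH CL. Macrophage and leukocyte markers were split, with 3 of 6 lower (median -0.047), and summed signals were 1991 to 4622 in CET CL and 2807 to 3637 in VEH CL. A lower mean was seen for 2 of 4 pericyte and smooth muscle markers, 3 of 5 fibroblast markers, 1 of 2 erythroid markers and 5 of 6 epithelial markers. The part of the makeup of the tissue in the respiratory chain values was not tested.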

How the data were processed

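The deposited intensity values are linear MAS5 signals, and the authors had scaled every array. The mean without the highest and lowest 2% was 500.01 to 500.03. Detection calls were not given in the sources used here. The floor for signals was 1, and quantile normalization between arrays followed on the log2 scale. After 158 controls were removed from 52865 probe sets, limma 3.58.1 (R 4.3.3) compared CET with VEH on 52707 probe sets, two-sided, with a trend on intensity and without covariates. The p-values were adjusted by Benjamini-Hochberg. The brightest probe set with a single symbol stood for its gene. The limit for dim probe sets was the 40th percentile of mean log2 signal (7.43), and all 59 genes lay above it. Background shares are over 14132 genes. Signal is not compared between probe sets except to pick the brightest one.

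The genes named were, per complex, the 2 with the smallest p in each direction and the brightest, isoform pairs and c subunit genes, and, per further list, the 2 with the smallest p. The genes and lists were chosen with earlier results of these data known. With 3 arrays a group, the smallest p an exact permutation test allows is 0.1. The p-values measure only the spread between these samples. The limma step was run on simulated data with known changes, where the only requirement was a mean estimated change close to the true one. That check does not bear on the p-values.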

Additional observations from a re-analysis of the deposited data

How the results depend on the processing

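The number of arrays limits these values, and without detection calls the distance of each signal from background is not known. No adjusted p of the 59 genes passed 0.05 in limma in any setting tried. No paired analysis was possible because the labels do not say which CET and VEH samples share a monkey.

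The count of genes lower at an unadjusted p under 0.05 was 0 in the values reported, against 3.01% of all genes. It was 5 with the signals as deposited (8.47%, against 3.15% of all genes) and 7 with array medians subtracted (11.9%, against 6.05%). It was 9 with array weights (15.3%, against 7.15%) and 3 with the mean over probe sets (5.08%, against 3.84%). The second brightest probe set gave 3 (5.08%, against 3.55%) and a pseudocount of 16 gave 2 (3.39%, against 3.08%). It was 1 with a floor at the 20th percentile (3.24% of all genes) and 1 with the RNA quality covariate (3.06%). By the methods' t-test it was 1 (2.89%), as with probe sets of neither suffix for shared sequence (3.1%). Without CET replicate 1 it was 16 (27.1%, against 10.1%). With any other replicate left out it was 0 or 1, against 1.32 to 2.71% of all genes. The count higher was 1 with array weights, 1 with the second brightest probe set and 0 to 2 with 1 replicate left out. Shares of all genes in the higher direction were not taken for these settings. Genes lower with groups apart numbered 6 with the signals as deposited (10.2%, against 6% of all genes) and 12 with array medians subtracted (20.3%, against 10.2%). They numbered 21 without CET replicate 1 (35.6%, against 20.7%). Without CET replicate 2 or 3 they numbered 3 (5.08%, against 10.6 and 9.37%). Without VEH replicates 4, 5 and 6 they numbered 5, 4 and 8 (8.47, 6.78 and 13.6%, against 13.4, 9.55 and 10.4%). With array medians subtracted the median log2 fold change was -0.74 for the 59 genes, -0.70 for complex I, -0.52 for complex IV and -0.85 for ATP synthase, while that of all genes shifted to -0.20. With 1 replicate left out it was -0.22 to 0.15 for complex IV and -0.65 to -0.048 for ATP synthase. The cause was not tested.

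Of 715 values of 39 named genes under the alternatives, 670 kept their direction and side of the threshold and 45 turned their sign, in 21 genes. With the signals as deposited, these were NDUFC1 at -0.096, COX7A1 at -0.17, COX6B1 at -0.34, NDUFA4 at -0.27 and NDUFA4L2 at 0.0019. With array medians subtracted, they were NDUFC1 at -0.30, COX7A1 at -0.37, COX6B1 at -0.54, ATP5F1D at -0.14 and NDUFA4 at -0.47. With cyclic loess, they were NDUFB4 at 0.0029, SDHA at 0.16 and UQCRQ at 0.12, and with the covariate, COX7A1 at -0.18 and COX6B1 at -0.18. The mean over probe sets gave -0.47 for NDUFV3, 0.33 for COX5A, -0.51 for ATP5F1D and 0.29 for ATP5MG. The second brightest probe set gave -1.82 for NDUFV3, 0.34 for SDHC, 0.74 for COX5A, 0.68 for ATP5F1C, -0.50 for ATP5MC1, -1.53 for ATP5F1D, 0.85 for ATP5MG, 0.48 for ATP5G1, -0.16 for NDUFAF5, 0.015 for PHB1 and 0.86 for MRPL39. Without probe sets of either suffix, ATP5F1C was at 0.68 and ATP5MG at 0.85. With 1 replicate left out, the range was -0.47 to 0.0007 for ATP5MG, -0.63 to 0.28 for COX4I2, -0.17 to 0.32 for COX6B1, -0.13 to 0.47 for COX7A1, -0.36 to 0.067 for NDUFB4, -0.33 to 0.48 for SDHA, -1.49 to 0.094 for SLC25A14 and -0.24 to 0.29 for UQCRQ.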
